A study of Mus musculus with 24 samples.

Results

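The genes described here are the cytosolic ribosomal protein genes of the mouse, followed in macrophages (BMDMs) and dendritic cells (BMDCs) that were grown from bone marrow, with and without DMXAA, an agonist of mouse STING. Members were chosen by name and type: every row annotated as protein coding whose symbol starts with Rpl or Rps and a number, with Rplp0, Rplp1, Rplp2 and Rpsa, and without the ribosomal S6 kinases. This gave 94 of the 54532 genes of the table. They comprised 43 large subunit proteins, 31 small subunit proteins and 3 stalk proteins (77 canonical members), 7 paralogs and 8 protein-coding rows with retrocopy names. The other 2 were Rpl7l1, a relative of Rpl7, and Rps19bp1, which binds Rps19 and is no ribosomal protein.

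Polyadenylated RNA was sequenced from 24 libraries in 8 groups of 3. All mice carried the floxed STING gene (Tmem173 fl/fl) and had been given tamoxifen. Groups labelled WT had no Cre, and groups labelled CRE carried the tamoxifen-inducible Lzym-Creert2 allele, which drives recombination from the lysozyme promoter of myeloid cells. Each label and cell type had a control group and a group stimulated with DMXAA, for which the series' design text gives 40 µM and no duration. The study's methods state the dose as mass per volume, so its concentration is not certain. The labels do not give the age of the mice or say whether the numbers 1 to 3 within a group came from separate animals, so p-values measure only the spread between these libraries.

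Ribosomal proteins of the large and small subunits, together with ribosomal RNA, build the machine that translates mRNA, and each is needed in about equal copies. The acidic stalk proteins recruit the GTPases that drive elongation. Most ribosomal protein mRNAs begin with a tract of pyrimidines at the cap, the TOP motif, through which mTORC1 signalling and the RNA-binding protein Larp1 set how much of the mRNA is translated. The genes have also left a large number of near-identical processed pseudogenes in the mouse genome, to which short reads of the parent mRNA can be assigned.

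Library totals lay between 15657347 and 18912887 counts. The 4 BMDM libraries numbered 3 stood apart. Their summed level of 8 macrophage markers was 42.5 to 71.6 CPM, which are counts scaled to a common library size, against 9535 to 21321 CPM in the other 8 BMDM libraries. Their 8 fibroblast markers summed to 13705 to 20879 CPM against 37.2 to 621 CPM. The labelled cell type was thus not borne out by its markers there, and these 4 libraries are given apart and enter no test unless stated. Among the other BMDM libraries, WT number 2 had fibroblast markers at 621 CPM without and 526 CPM with DMXAA, and its part in the results was not tested. In the BMDCs, 8 dendritic cell markers summed to 6058 to 10078 CPM, against 175 to 639 CPM in BMDMs 1 and 2. BMDCs also held macrophage markers, at 2197 and 2064 CPM in CRE number 2 without and with DMXAA and at 6083 to 9113 CPM in the other 10. The 4 neutrophil markers summed to 162 and 74.2 CPM in that pair and to 5.79 to 16.0 CPM in the other 10. In such bulk samples fewer cells of a type and less RNA per cell cannot be told apart. In BMDMs 1 and 2, Tmem173 itself was at 8.76 to 10.4 FPKM in CRE, at 9.91 and 14.7 FPKM in WT controls and at 22.8 and 31.8 FPKM in WT with DMXAA. In control BMDCs it was at 19.7 to 36.8 FPKM in CRE and 28.8 to 51.6 FPKM in WT. With DMXAA, CRE BMDCs were at 24.3 to 35.1 FPKM and WT BMDCs at 34.6 to 55.3 FPKM, so the labels overlapped in BMDCs. These values over the whole gene do not check the recombination. FPKM, as the authors calculated it, scales the fragments of a gene by its length and by the size of the library.

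Start sites of the members were read from RefSeq promoters on GRCm38.p6, which held 78 windows for 66 of the 94 members. The windows below run from 15 bases before the annotated start to 14 bases after it, so the start is base 16, and the longest run of pyrimidines is in capitals. They are shown because translational control of TOP mRNAs acts on the sequence at the start, and because they belong to members called in a comparison. Rps6 is added as the classical TOP example. The windows of Rps28, Rps3a1 and Rpl7l1 carry no such tract, with longest runs of 4, 2 and 2 bases.
Rps6: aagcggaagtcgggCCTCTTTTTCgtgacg
Rpl38: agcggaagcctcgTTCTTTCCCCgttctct
Rpl35a: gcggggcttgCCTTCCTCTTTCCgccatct
Rps21: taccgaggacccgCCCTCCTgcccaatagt
Rpl7a: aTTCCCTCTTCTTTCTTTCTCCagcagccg
Rps28: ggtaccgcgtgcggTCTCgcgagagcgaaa
Rps3a1: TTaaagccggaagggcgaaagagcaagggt
Rpl7l1: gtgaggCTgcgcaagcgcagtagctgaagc

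These windows lie at chr4:86857353-86857382 on the minus strand (Rps6), chr11:114668565-114668594 on the plus strand (Rpl38), chr16:33056467-33056496 on the plus strand (Rpl35a), chr2:180257364-180257393 on the plus strand (Rps21), chr2:26910792-26910821 on the plus strand (Rpl7a), chr17:33824548-33824577 on the minus strand (Rps28), chr3:86142654-86142683 on the minus strand (Rps3a1) and chr17:46782642-46782671 on the minus strand (Rpl7l1). In the windows shown, Rps6, Rpl38, Rpl35a and Rps21 had a C followed by at least 4 pyrimidines exactly at the annotated start. Rpl35a and Rps21 also have other annotated starts, not shown, without this motif. In all, 14 of the 78 windows (17.9%) had it, against 2.51% of the 32851 promoters of the table. A run of at least 8 pyrimidines within 20 bases of the start was in 39.7% of the members' windows and 16.0% of all. The letters CCGGAAG, a core that Ets family factors bind, were found on either strand of the 300 bases in 34.6% of the members' windows and 8.86% of all promoters. TATAAA was in 8.97% and 13.6%. These matches are descriptions of the annotated starts, which may differ from the starts used in these cells.

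The ribosomal protein genes were among the highest rows of the table in both cell types. Taking the median FPKM over libraries for each canonical member, the median of the 77 was 226 FPKM in BMDMs 1 and 2 (quartiles 137 and 338) and 341 FPKM in BMDCs (quartiles 197 and 535). At least 100 FPKM was reached by 65 of the 77 in BMDMs and by 71 in BMDCs. FPKM is per length, so rows of different genes may be compared on this scale as far as their reads were not split with copies. Most members share coding sequence with copies, as given below, so the order of rows is uncertain to that extent.

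The stalk proteins led the order. Rplp1 was at 2164 to 3256 FPKM over the 8 BMDM libraries numbered 1 and 2 (median 2603) and at 3259 to 5304 FPKM over the 12 BMDC libraries (median 4240), and it ranked first in both. Rplp0 ranked second in both, with medians of 907 and 1470 FPKM. The ranges of Rplp1 and Rplp0 did not overlap in either cell type. Below them, Rpl36 and Rps15 had BMDM medians of 743 and 688 FPKM, and their ranges of 593 to 893 and 639 to 814 FPKM overlapped. Rplp2, the partner of Rplp1 in the stalk dimer, was far lower, at 197 to 261 FPKM in BMDMs.

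Members with known roles outside the core of translation lay at different places in the order. Rpsa, which is also the laminin receptor, had a median of 315 FPKM in BMDMs and 715 FPKM in BMDCs. Rps6, the substrate of the S6 kinases, was at 369 and 590 FPKM. Rpl5 and Rpl11, which carry the 5S ribosomal RNA and bind Mdm2, were at 151 and 146 FPKM in BMDMs and 236 and 208 FPKM in BMDCs. Rps19, the gene most often mutated in Diamond-Blackfan anaemia, was at 95.0 and 153 FPKM. The medians of Rpl5 and Rpl11 lay within each other's range.

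A few canonical members were listed far below their partners in the same subunit. In BMDMs and BMDCs, respectively, the medians were 1.11 and 1.14 FPKM for Rps10, 3.26 and 7.17 FPKM for Rpl24, 6.71 and 13.9 FPKM for Rpl13a, and 16.9 and 32.6 FPKM for Rpl21. All 4 have coding sequences shared with other genes of the annotation: 93.0% of the 50-base words of the coding sequence of Rps10 occur in another gene's transcripts, and 97.5% of those of Rpl13a. In the same libraries the pseudogene Rps10-ps2 stood at 69.0 to 231 CPM, whereas Rps10 itself stood at 0.668 to 4.99 CPM.

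Sharing of sequence was general among the members. Of the 92 members with a transcript in the annotation, 63 had over 80% of their coding 50-base words in another gene and 32 had all of them, including Rps28, Rps29, Rpl38, Rps27a, Rps6, Rpl5 and Rpl11. Only 19 had at most 50%, among them Rpl41 (4.49%), Rps3 (8.09%), Rpl8 (8.73%), Rpl4 (20.3%) and Rps21 (45.5%). The counts of the other members could be split with copies by the authors' counting and are uncertain to that extent.

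The paralogs, which can replace a canonical protein in the ribosome of some tissues, were mostly low. Rpl22l1, the counterpart of Rpl22, was at 8.02 to 17.3 FPKM in BMDMs and 15.7 to 41.6 FPKM in BMDCs, against 52.4 to 83.2 and 71.5 to 147 FPKM for Rpl22. Rps27l was at 72.7 to 118 FPKM in BMDMs beside Rps27 at 127 to 216 FPKM, and Rps27rt was at 81.8 to 199 FPKM with all of its coding words shared. Rpl36al did not pass 0.806 FPKM in BMDMs 1 and 2, where Rpl36a was at 65.3 to 111 FPKM. Rpl3l and Rpl10l, paralogs of muscle and testis, were at no more than 0.0681 FPKM and listed at 0 in BMDMs 1 and 2, whereas Rpl3 and Rpl10 had medians of 192 and 480 FPKM. In BMDCs, Rpl3l was at 0.131 to 1.03 FPKM.

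Rpl39l was the exception among the paralogs in that it marked 1 library number. It stood at 7.19 FPKM in the control and 8.41 FPKM in the DMXAA library of WT BMDM number 2, and at no more than 0.65 FPKM in the other 6 libraries of BMDMs 1 and 2. The same pair of libraries carried the fibroblast markers given above. Among the remaining rows, the retrocopy row Rps12-ps3 was as high as a canonical member, with medians of 250 FPKM in BMDMs and 451 FPKM in BMDCs, and all of its coding words were shared.

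Under DMXAA the members took a smaller share of the counts in every pair of libraries outside BMDM number 3. In WT BMDMs the share went from 3.67% to 2.46% for number 1 and from 4.58% to 2.94% for number 2. In CRE BMDMs it went from 3.95% to 2.71% and from 4.07% to 2.9995%. In WT BMDCs the 3 pairs went from 7.42% to 6.43%, from 6.003% to 5.34% and from 5.73% to 4.18%. In CRE BMDCs they went from 5.51% to 3.79%, from 6.49% to 5.53% and from 6.17% to 5.46%. The DMXAA library was lower in 10 of 10 pairs, at 0.642 to 0.890 times its control. Control and DMXAA libraries did not overlap in BMDMs 1 and 2 and did in BMDCs, where 6.38% ± 0.904 (SD, n = 3) stood against 5.32% ± 1.13 in WT and 6.05% ± 0.500 against 4.93% ± 0.986 in CRE. In BMDM number 3 the share went from 5.42% to 5.04% in WT and from 6.12% to 6.54% in CRE. A share has no test here, since it is a sum over chosen members. The 78 mitochondrial ribosomal protein genes, which serve another ribosome, were also lower in 10 of 10 pairs, at 0.621 to 0.821 times the control.

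**Figure D1:**
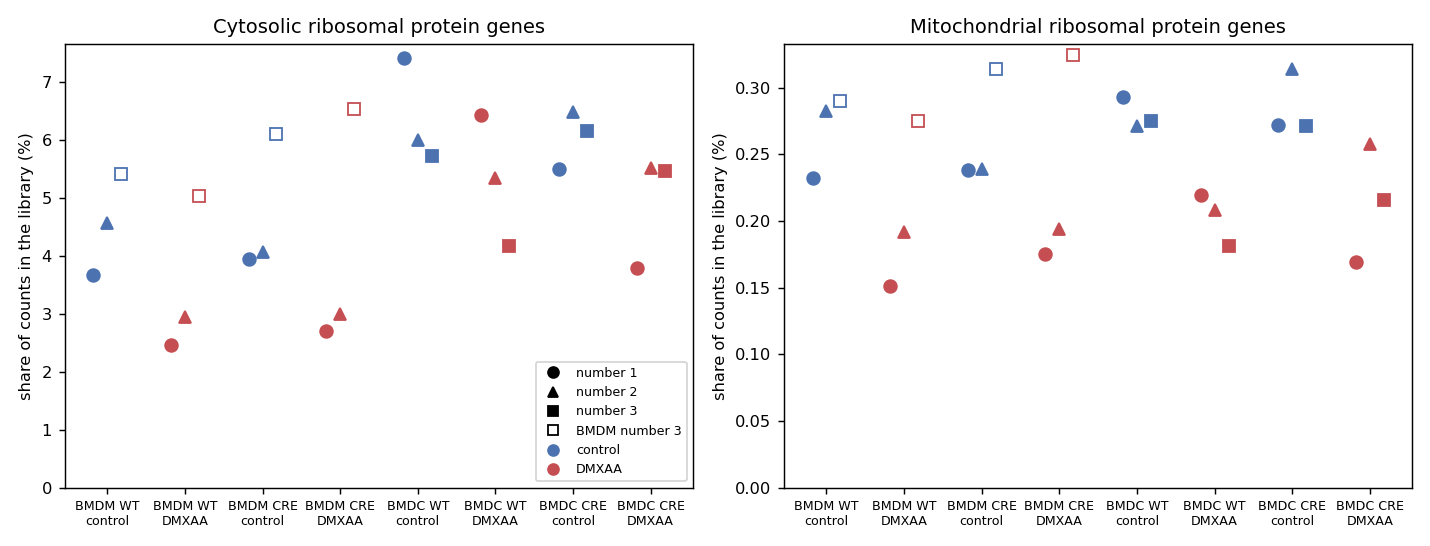
Share of all counts of a library (%, axis from 0) that fell on the 94 cytosolic (left) and 78 mitochondrial (right) ribosomal protein genes, in the 8 groups; each point is 1 library, blue is control and red DMXAA, shapes give the library number, and open squares are BMDM number 3. The filled red points lie below the filled blue point of the same number in all 10 pairs, and the control BMDCs lie above the control BMDMs numbered 1 and 2 in the left panel.

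With library totals as the only scaling, the median of all tested genes fell by 0.59 on the log2 scale in WT BMDMs, by 0.24 in CRE BMDMs, by 0.36 in WT BMDCs and by 0.34 in CRE BMDCs. The tests below use TMM factors, which bring that median to −0.08, −0.01, 0.01 and −0.01. Relative to the median of all genes, the members' median differed by −0.06 in WT BMDMs, −0.27 in CRE BMDMs, 0.10 in WT BMDCs and 0.04 in CRE BMDCs, and with library totals by −0.05, −0.26, 0.10 and 0.03. A member count is given on the TMM scale unless stated. Calls are at an adjusted p under 0.05 by edgeR's quasi-likelihood test with Benjamini-Hochberg adjustment over all genes tested.

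In WT BMDMs, few ribosomal protein genes were called under DMXAA. Of 88 members tested, 0 were called higher and 2 lower, beside 18.4% and 20.8% of all 11569 genes. Library totals alone gave 65 lower, and the share of higher calls among all genes called was then 20.4% and not 47.0%. Gene positions are on GRCm38. The 2 were Rpl13a (ENSMUSG00000074129, chr7:45125558-45128761, minus strand), a large subunit protein that also acts in the interferon-gamma-activated inhibitor of translation complex, and Rpl7l1, a relative of Rpl7. Rpl13a was at 7.53 and 9.58 FPKM in the 2 control libraries and at 3.89 and 5.89 FPKM with DMXAA. The groups did not overlap, and the log2 fold change was −0.91 ± 0.26 (SE, edgeR, adjusted p = 0.0322). Rpl7l1 was at 29.4 and 33.2 FPKM without and at 19.9 and 26.1 FPKM with DMXAA, again without overlap, and its log2 fold change was −0.55 ± 0.17 (edgeR, adjusted p = 0.0378).

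None of the stalk proteins was called. The canonical members' log2 fold changes in WT BMDMs had a median of −0.14 with quartiles of −0.21 and −0.02, and 61 of 77 lay below 0. Rplp0, Rplp1 and Rplp2 were at −0.13, −0.12 and −0.06, and Rps6 at −0.15. Rps4x, the X-linked form of its small subunit protein, was at −0.04, Rpl39 at 0.06, and Rps19bp1, which binds Rps19 and is no ribosomal protein, at −0.28. Without WT control number 1 the count was 11 lower, without WT control number 2 it was 3, all of them higher, and without WT DMXAA number 1 it was 0.

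In CRE BMDMs the members leaned down together. Of 88 tested, 0 were called higher and 7 lower, beside 7.19% and 2.69% of all genes, and 86 of the 88 log2 fold changes were below 0. Control and DMXAA libraries, 2 a group, did not overlap in FPKM for 77 of these 88, beside 76.7% of all genes tested. The called members were Rpl7a, Rps28, Rps29, Rps21, Rpl38, Rpl35a and the retrocopy row Rpl10-ps3, so 3 were of the small and 3 of the large subunit. With library totals alone 19 were lower and 0 higher, with 43.5% of all calls higher and not 72.8%. DESeq2 called 15 of the 88, all lower, beside 1908 of all 11569 genes in either direction.

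The gene with the smallest adjusted p was Rps28 (ENSMUSG00000067288, chr17:33819027-33824562, minus strand), a small subunit protein near the mRNA exit. It was at 87.0 and 106 FPKM in CRE control BMDMs and at 36.9 and 40.0 FPKM with DMXAA. Its log2 fold change was −1.35 ± 0.15 (edgeR, adjusted p = 0.00226), and it kept its call without any of the 4 libraries in turn. In WT BMDMs the same gene was at 71.98 and 64.6 FPKM without and 66.7 and 58.8 FPKM with DMXAA, so the WT groups overlapped.

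Rps29 (ENSMUSG00000034892, chr12:69157722-69159186, minus strand), a small zinc-binding protein of the small subunit, was at 317 and 471 FPKM in CRE controls and 141 and 181 FPKM with DMXAA (log2 fold change −1.31 ± 0.22, edgeR, adjusted p = 0.0140), and at 250 and 239 against 241 and 238 FPKM in WT. Rps21 (ENSMUSG00000039001, chr2:180257377-180258445, plus strand), also of the small subunit, was at 233 and 306 FPKM in CRE controls and 136 and 147 FPKM with DMXAA (−0.95 ± 0.16, adjusted p = 0.0155 by edgeR), and between 205 and 227 FPKM in all 4 WT libraries. For both genes, both CRE libraries with DMXAA were below the CRE controls and below all 4 WT libraries.

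Among large subunit members, Rpl38, which in the embryo is needed for translation of a subset of Hox mRNAs, was at 312 and 345 FPKM in CRE controls and 175 and 196 FPKM with DMXAA. The log2 fold change was −0.85 ± 0.12 (edgeR, adjusted p = 0.00820), while the 4 WT libraries lay between 252 and 271 FPKM. Rpl7a had the largest fitted fall, −1.81 ± 0.34 (edgeR, adjusted p = 0.0223). Its 2 CRE controls lay far apart, at 136 and 65.8 FPKM, above the DMXAA libraries at 28.0 and 30.5 FPKM. In WT BMDMs it went from 72.6 and 68.7 to 38.8 and 54.4 FPKM, which did not overlap and was not called (−0.71 ± 0.33, edgeR, adjusted p = 0.141).

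Leaving out any 1 of the 4 CRE libraries gave 1 to 3 calls: 3 without control number 1, 2 without control number 2 and 1 without either DMXAA library. When each member's counts were summed with those of its copies, 5 calls remained, Rps28, Rps29, Rps21, Rpl38 and Rpl35a, and Rpl7a and Rpl10-ps3 were no longer called. Among members with at most 50% shared words, 1 of 15 tested was called, Rps21.

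**Figure D2:**
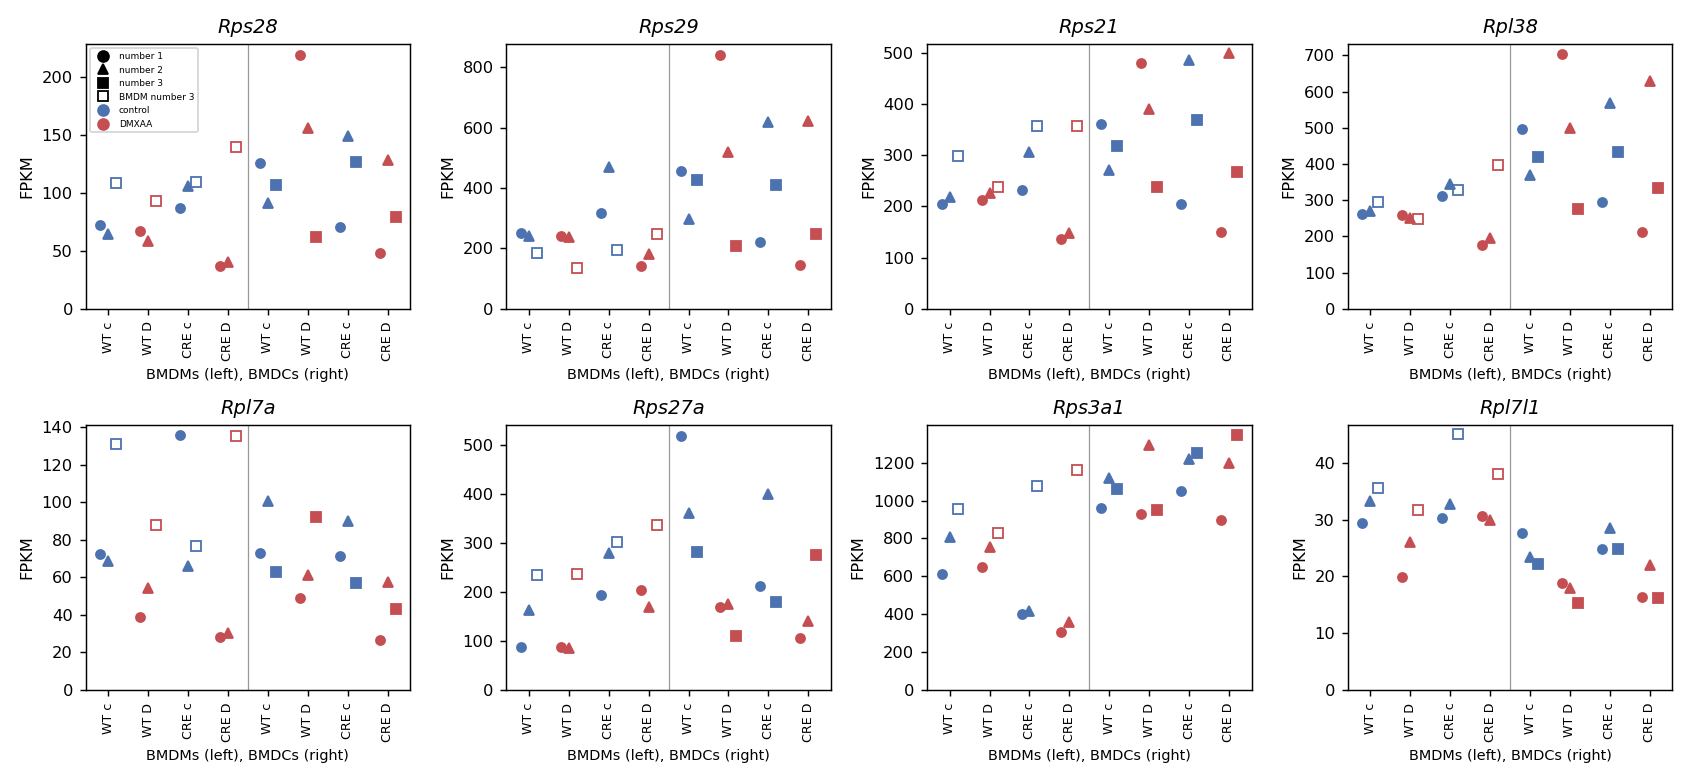
FPKM (axis from 0) of 8 members in every library, BMDMs left and BMDCs right of the grey line; c is control, D is DMXAA, shapes give the library number, and open squares are BMDM number 3. In CRE BMDMs Rps28, Rps29, Rps21 and Rpl38 fell under DMXAA in numbers 1 and 2, Rps3a1 was lower in CRE than WT BMDMs, and in BMDCs the control and DMXAA libraries overlap for Rps28, Rps29, Rps21 and Rpl38.

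Without DMXAA no member was called between CRE and WT BMDMs. Of 88 tested, 0 were called in either direction by edgeR, beside 0.0432% of all genes. An unadjusted p under 0.05 was found for 5 of the 88 and 782 of all 11569 genes. DESeq2 called 1 member lower, beside 126 of all genes in either direction. The 3 with the smallest p were Rps3a1 (log2 difference, CRE against WT, −0.84 ± 0.18, edgeR, adjusted p = 0.422), Rpl9-ps6 (1.52 ± 0.45) and Rps28 (0.46 ± 0.14).

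Under DMXAA 5 of 88 members differed between CRE and WT BMDMs. In CRE, 1 was higher and 4 were lower, beside 9.26% and 9.96% of all genes. The members' median difference was −0.15 on the TMM scale and 0.08 with library totals alone, under which 2 were higher and 1 lower and 70.9% of all calls were higher and not 48.2%. Relative to the median of all genes it was −0.16 on both. All 5 were small subunit genes. Cell type markers moved with the label in these libraries. Under DMXAA the 8 dendritic cell markers summed to 561 and 532 CPM in CRE and to 174.5 and 264 CPM in WT, with 0 and 2 of the 8 at 0 in CRE and 1 in each WT library. In controls they summed to 638 and 639 CPM in CRE and to 299 and 315 CPM in WT. The 8 macrophage markers under DMXAA summed to 9535 and 9663 CPM in CRE and to 11452 and 13244 CPM in WT. In controls these 8 summed to 12627 and 12758 CPM in CRE and to 19331 and 21321 CPM in WT. The part of both marker sets in these differences was not tested.

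Rps3a1 (ENSMUSG00000028081, chr3:86137940-86142702, minus strand), which encodes the small subunit protein eS1, was lower in CRE, with a log2 difference of −1.03 ± 0.18, and had the smallest adjusted p of the 5 (edgeR, adjusted p = 0.0123). It was at 648 and 753 FPKM in WT and at 304 and 359 FPKM in CRE. The control libraries showed the same order, with 611 and 809 FPKM in WT and 403 and 416 FPKM in CRE. Its copies were higher in CRE, as given with the copies.

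Rps28 (−0.66 ± 0.14, edgeR, adjusted p = 0.0236) and Rps21 (−0.59 ± 0.16, adjusted p = 0.0457) were lower in CRE. Rps27a, whose product is a ubiquitin fused to a small subunit protein, was higher in CRE, at 204 and 169 FPKM against 86.9 and 85.3 FPKM (1.16 ± 0.32, edgeR, adjusted p = 0.0474), and in control libraries it was already at 193 and 280 against 87.5 and 162 FPKM. The count was 0 without either CRE library, 1 without WT number 1 and 3 without WT number 2.

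The difference between the 2 DMXAA responses was tested as an interaction. Rps28 was the only member called of 88, beside 3.65% of all genes, with an interaction of −1.11 ± 0.20 on the log2 scale (edgeR, adjusted p = 0.0397). Rps29 (−1.17 ± 0.30), Rps21 (−0.89 ± 0.23) and Rpl38 (−0.67 ± 0.17) missed the threshold, with adjusted p of 0.0917, 0.0898 and 0.0906 by edgeR. DESeq2 called 6 of the 88, beside 1195 of all 11569 genes, and limma on log2(FPKM + 1) called 3 members. With library totals alone 0 were called, the members' median turned from −0.16 to 0.11, and 66.7% of all calls were higher and not 37.4%. The count was also 0 when members were summed with their copies. It was 0 as well without any 1 of the 4 CRE libraries and without WT DMXAA number 1.

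In WT BMDCs, 0 of 89 members tested were called higher and 2 lower under DMXAA, beside 16.9% and 15.2% of all 12126 genes. With library totals alone 5 were lower, and 26.5% of all calls were higher and not 52.7%. With the library number as a block, which pairs the BMDC libraries, 1 member was called higher and 2 lower. That block called 5902 of all 12126 genes in either direction. The median of the canonical members was 0.10 and 12 of 77 lay below 0. Rps27a was at 518, 360 and 281 FPKM in the controls and at 170, 175 and 109 FPKM with DMXAA, all 3 below all controls. Its log2 fold change was −1.37 ± 0.40 (edgeR, adjusted p = 0.0224), and all of its coding words are shared with copies. Rpl7l1 was at 27.6, 23.4 and 22.2 FPKM without and 18.9, 17.99 and 15.3 FPKM with DMXAA, also without overlap (−0.51 ± 0.15, adjusted p = 0.0242 by edgeR).

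In CRE BMDCs, Rpl7l1 was again called lower and was the only call of 89, none being higher, beside 14.0% of genes higher and 11.4% lower. With library totals alone 3 were lower, and 26.4% of all calls were higher and not 55.1%. It was at 24.8, 28.5 and 24.8 FPKM without and at 16.3, 21.9 and 16.1 FPKM with DMXAA. The groups did not overlap and the log2 fold change was −0.55 ± 0.15 (edgeR, adjusted p = 0.0219). With the library number as a block, which pairs the BMDC libraries, Rpl7a and Rps10 were called lower as well. That block called 5175 of all 12126 genes in either direction. Without CRE number 2, a choice made after seeing the data, Rpl7l1 was still the only call, at −0.63 (edgeR, adjusted p = 0.0108). Rpl7a was at 71.5, 90.3 and 57.1 FPKM without and 26.6, 57.6 and 43.0 FPKM with DMXAA. Rpl7l1 was thus called lower in WT BMDMs and in both BMDC comparisons and was at −0.08 ± 0.17 in CRE BMDMs.

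Of the genes that fell in CRE BMDMs, Rps28, Rps29, Rps21 and Rpl38 had fitted log2 fold changes above 0 in WT BMDCs (0.40, 0.37, 0.20 and 0.17) and below 0 in CRE BMDCs (−0.46, −0.33, −0.24 and −0.17), and none was called in either. Rps28 was at 126, 91.6 and 107 FPKM in WT controls and 219, 156 and 61.8 FPKM with DMXAA, so numbers 1 and 2 were higher and number 3 lower than every control. In CRE BMDCs it was at 70.6, 149 and 127 FPKM without and 48.0, 128 and 79.4 FPKM with DMXAA. It was lower with DMXAA in 3 of 3 CRE pairs, and the SE of both log2 fold changes was 0.44. Leaving out BMDC WT control 1 or WT DMXAA 3 left 0 calls in WT, and leaving out BMDC CRE control 2, CRE DMXAA 1 or CRE DMXAA 3 left 0 in CRE.

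Between CRE and WT BMDCs no member was called by edgeR or DESeq2, nor by edgeR without CRE number 2. The count was 0 of 89 in control BMDCs (beside 0.0% of all genes), 0 of 89 under DMXAA (0.0%) and 0 of 89 for the interaction (0.0%). No member had an unadjusted p under 0.05 in any of the 3, and 99, 107 and 60 of all genes did. The smallest p belonged to Rpl34 (log2 difference −0.37), Rpl22l1 (−0.44) and Rps27a (−0.54) in controls, to Rpl7a (−0.67), Rpl29 (−0.62) and Rpl9-ps6 (−0.67) under DMXAA, and to Rpl24 (−0.99), Rps28 (−0.86) and Rps27a (0.75) for the interaction.

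Genes that make ribosomes were called lower in larger shares under DMXAA than the ribosomal protein genes were, with the smallest gap in CRE BMDMs. The lists of this and the next 2 paragraphs were chosen with earlier results of these data known. Of 19 genes of ribosome biogenesis and RNA polymerase I, 16 were called lower and 0 higher under DMXAA in WT BMDMs (median log2 fold change −1.20). That is 84.2% called lower beside 20.8% of all genes. In WT BMDCs 15 were lower and 0 higher (−0.88), beside 15.2% of all genes called lower. In CRE BMDCs 14 were lower and 0 higher (−0.77), beside 11.4% called lower. In CRE BMDMs 2 were lower and 0 higher (−0.58), beside 2.69% called lower. Myc, which drives transcription of ribosome genes, was at 28.3 and 18.2 FPKM in WT control BMDMs and at 1.11 and 7.69 FPKM with DMXAA (−2.48 ± 0.73). Nolc1, a nucleolar phosphoprotein, was at 21.6 and 21.5 against 3.35 and 7.21 FPKM (−2.13 ± 0.33). Dkc1, the pseudouridine synthase of ribosomal RNA, fell by 2.20 in WT BMDMs and by 3.59 in WT BMDCs on the log2 scale. In WT BMDMs the members' median was −0.14 beside this −1.20.

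Among 15 other mRNAs of the TOP class, which include elongation factors, few were called. In WT BMDMs 1 was called higher and 2 lower, in CRE BMDMs 0, in WT BMDCs 1 higher, and in CRE BMDCs 0, which is 6.67% higher and 13.3% lower in WT BMDMs beside the 18.4% and 20.8% of all genes. Pabpc1, which binds the poly(A) tail, rose by 1.11 ± 0.13 in WT BMDMs and 0.79 ± 0.24 in WT BMDCs. It was at 122 and 108 FPKM in WT control BMDMs and at 288 and 246 FPKM with DMXAA, but between 121 and 129 FPKM in all 4 CRE libraries. The interaction of Pabpc1 was −1.05 ± 0.18 (edgeR, adjusted p = 0.0333). Eif4b and Nap1l1 fell in WT BMDMs by 0.82 and 1.08.

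Genes that control translation were called in both directions. Of 13, in WT BMDMs 2 rose and 3 fell, in CRE BMDMs 3 rose, and in each of the BMDC groups 2 rose and 3 fell. Of all genes, 7.19% were called higher and 2.69% lower in CRE BMDMs. In WT BMDCs it was 16.9% and 15.2%, and in CRE BMDCs 14.0% and 11.4%. Eif2ak2, the interferon-induced kinase PKR that blocks initiation, rose by 3.92 and 3.22 in WT and CRE BMDMs and by 3.01 and 3.28 in WT and CRE BMDCs. Larp1, which binds TOP mRNAs, was at 24.7 and 17.7 FPKM in WT control BMDMs and 77.1 and 70.6 FPKM with DMXAA, a rise of 1.69 ± 0.17, and rose by 0.90 in CRE BMDMs, 1.47 in WT BMDCs and 1.57 in CRE BMDCs. Eif4ebp2, a repressor of cap binding, fell by 1.54 in WT BMDMs. Of the 13, 15.4% were called higher and 23.1% lower in WT BMDMs, close to the shares of all genes. Of 77 mitochondrial ribosomal protein genes tested, 6 were called higher (7.79%, beside 18.4% of all genes) and 14 lower (18.2%, beside 20.8%) in WT BMDMs. In CRE BMDMs 1 was higher and 2 lower, in WT BMDCs 0 and 9, and in CRE BMDCs 2 and 5, each below the shares of all genes. Fau and Rack1, which encode ribosomal proteins under other names, were not called in any DMXAA comparison.

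**Figure D3:**
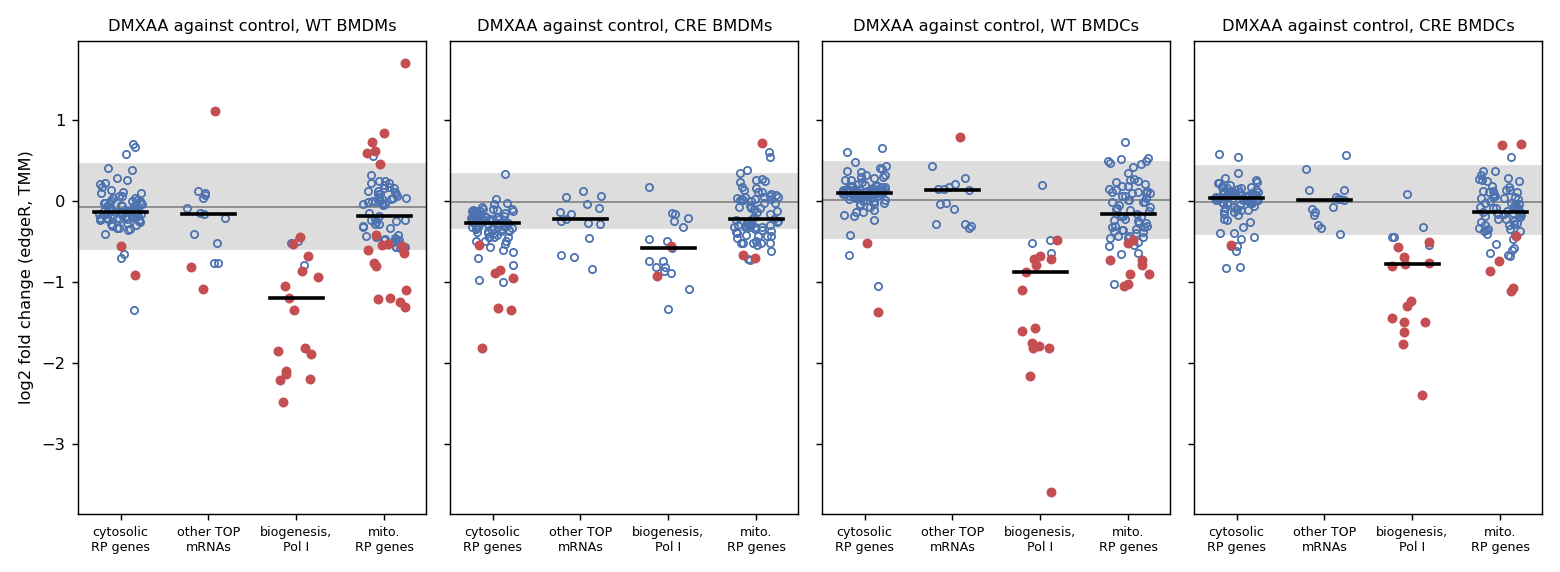
Fitted log2 fold changes, DMXAA against control, in the 4 cell and label groups; each circle is a gene, filled red where called, black bars are list medians, and the grey band and line give the quartiles and median of all genes tested. The median of the cytosolic ribosomal protein genes lies within the grey band in all 4 panels and that of the 19 biogenesis genes below it, with medians of −1.20, −0.58, −0.88 and −0.77 from left to right.

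Ribosomal protein genes were higher in BMDCs than in BMDMs. In control WT cells 18 of 89 members were called higher in BMDCs than in BMDMs and 0 lower, beside 13.1% and 15.4% of all 13368 genes. The members' median log2 difference, BMDCs against BMDMs, was 0.60 against −0.02 over all genes, and 77 of the 89 did not overlap in FPKM between the 2 BMDM and 3 BMDC control libraries, beside 53.3% of all genes tested. The 4 members below 0 were not called. BMDCs and BMDMs differ in cell type, and in culture (GM-CSF and IL-4 against L929-conditioned medium, by the study's methods), which cannot be told apart.

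Rpsa was at 288 and 382 FPKM in control WT BMDMs and at 821, 606 and 620 FPKM in BMDCs, a difference of 0.97 ± 0.23 (edgeR, adjusted p = 0.00508). Every BMDC library lay above both BMDM libraries. Rps27a was at 87.5 and 162 FPKM against 518, 360 and 281 FPKM (1.57 ± 0.44, adjusted p = 0.0144 by edgeR), also without overlap. Rpl30 was at 72.1 and 63.1 against 183, 138 and 126 FPKM (1.08 ± 0.30, adjusted p = 0.0119 by edgeR), and Rps18 at 166 and 214 against 561, 331 and 288 FPKM (0.99 ± 0.33, adjusted p = 0.0367 by edgeR). The row Rpl9-ps6 was higher by 1.45 ± 0.46 and shares 90.5% of its words. The other 13 were higher by 0.62 to 0.91, Rplp0, Rps6 and Rpl5 among them.

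The count of called members was 36 with library totals alone, 24 with median of ratios, 39 by DESeq2 and 26 by limma on log2(FPKM + 1), all of them higher, and 24 with members summed with their copies. DESeq2 called 4404 of all 13368 genes in either direction. It was 0 without WT control BMDM number 1 and 5 without WT control BMDC number 1. Of members with at most 50% shared words, 3 of 15 tested were called. For the difference in DMXAA response between the cell types 0 of 89 members were called by edgeR, beside 2.62% of all genes. Of the members, 1 had an unadjusted p under 0.05 (Rpl13a, interaction 0.90 ± 0.39, edgeR, adjusted p = 0.311; 1819 of all 13368 genes did), and 0 were called by DESeq2.

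**Figure D4:**
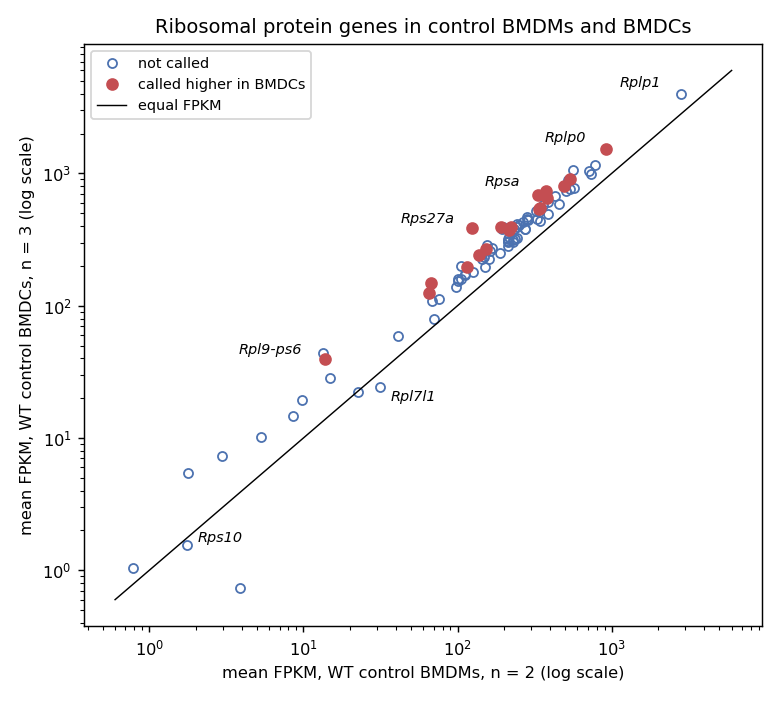
Mean FPKM of the tested members above 0.5 FPKM in control WT BMDMs (n = 2, numbers 1 and 2) against control WT BMDCs (n = 3), both axes logarithmic; filled red circles were called higher in BMDCs, and the line marks equal FPKM. Most members lie above the line, among them Rpl9-ps6 at 13.8 against 39.5 FPKM and Rplp0 at 922 against 1519 FPKM.

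In several libraries counts were listed on copies of ribosomal protein genes. The following stretches of 60 coding bases are shown because they carry the few bases by which a read of the member and of its processed pseudogene can be told apart, with those bases in capitals. The sequences come from the GENCODE vM21 annotation on GRCm38.
Rps2: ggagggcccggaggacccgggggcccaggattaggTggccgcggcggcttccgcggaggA
Rps2-ps13: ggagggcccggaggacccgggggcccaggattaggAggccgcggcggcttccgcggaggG
Rps3a1: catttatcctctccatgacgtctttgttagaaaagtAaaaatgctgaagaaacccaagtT
Rps3a2: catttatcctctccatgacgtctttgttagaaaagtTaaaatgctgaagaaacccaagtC

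Rps2 (chr17:24720300-24720359, plus strand) and Rps2-ps13 (chrX:52898612-52898671, plus strand) differed at 7 of 882 aligned coding bases. Rps3a1 (chr3:86138488-86138547, minus strand) and Rps3a2 (chr14:88123141-88123200, minus strand) differed at 4 of 792, and Rps3a1 and Rps3a3 at 9 of 795. In all, 75 copies of members were expressed, with at least 20 CPM in some library. The genes of this and the next paragraphs, apart from Rps3a1, Rps3a2 and Rps3a3, were named after their values were seen.

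Rps2, a small subunit protein near the entrance of the mRNA channel, was at 359 to 456 FPKM in BMDMs 1 and 2 and 492 to 937 FPKM in BMDCs, and at 1.69 to 4.46 FPKM in BMDM number 3. Its copy Rps2-ps13 was at 14.7 to 32.9 CPM in BMDMs 1 and 2, 27.9 to 67.6 CPM in BMDCs and 1764 to 2281 CPM in BMDM number 3. Member and copy together came to 1769 to 2288 CPM there, above the 487 to 964 CPM of BMDMs 1 and 2. Rpl34 was likewise at 14.2 to 21.2 CPM in BMDM number 3, where its copy Rpl34-ps1 was at 615 to 759 CPM.

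Library numbers of 1 group also differed in their copies. Rpl34-ps1 was at 459 CPM in the control and 407 CPM in the DMXAA library of CRE BMDC number 2, and at 14.1 to 23.96 CPM in the other 10 BMDC libraries. Rpl34 itself was lowest in that pair, at 404 and 357 CPM. Gm10020, a copy of Rpl15, was at 51.8 and 31.1 CPM in WT BMDM number 1, 32.3 and 24.01 CPM in CRE BMDC number 1 and 37.4 and 21.8 CPM in WT BMDC number 3, and under 1 CPM in the other 18 libraries. In each case both the control and the DMXAA library of a number had the copy.

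For Rps3a1 the copies differed between the labels in BMDMs. Rps3a2 was at 114 and 109 CPM in CRE control and 84.6 and 97.8 CPM in CRE DMXAA BMDMs, and at no more than 3.28 CPM in WT BMDMs 1 and 2. Rps3a3 followed it, at 91.6 to 139 CPM against at most 3.54 CPM. Rps3a1, Rps3a2 and Rps3a3 together came to 674 and 888 CPM in WT and 665 and 676 CPM in CRE controls, and to 438 and 571 against 441 and 517 CPM under DMXAA, so the 2 labels overlapped once the copies were added. Rps3a1 was not called with its copies summed. In BMDCs only WT number 1 had the copies, with Rps3a2 at 308 and 219 CPM.

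**Figure D5:**
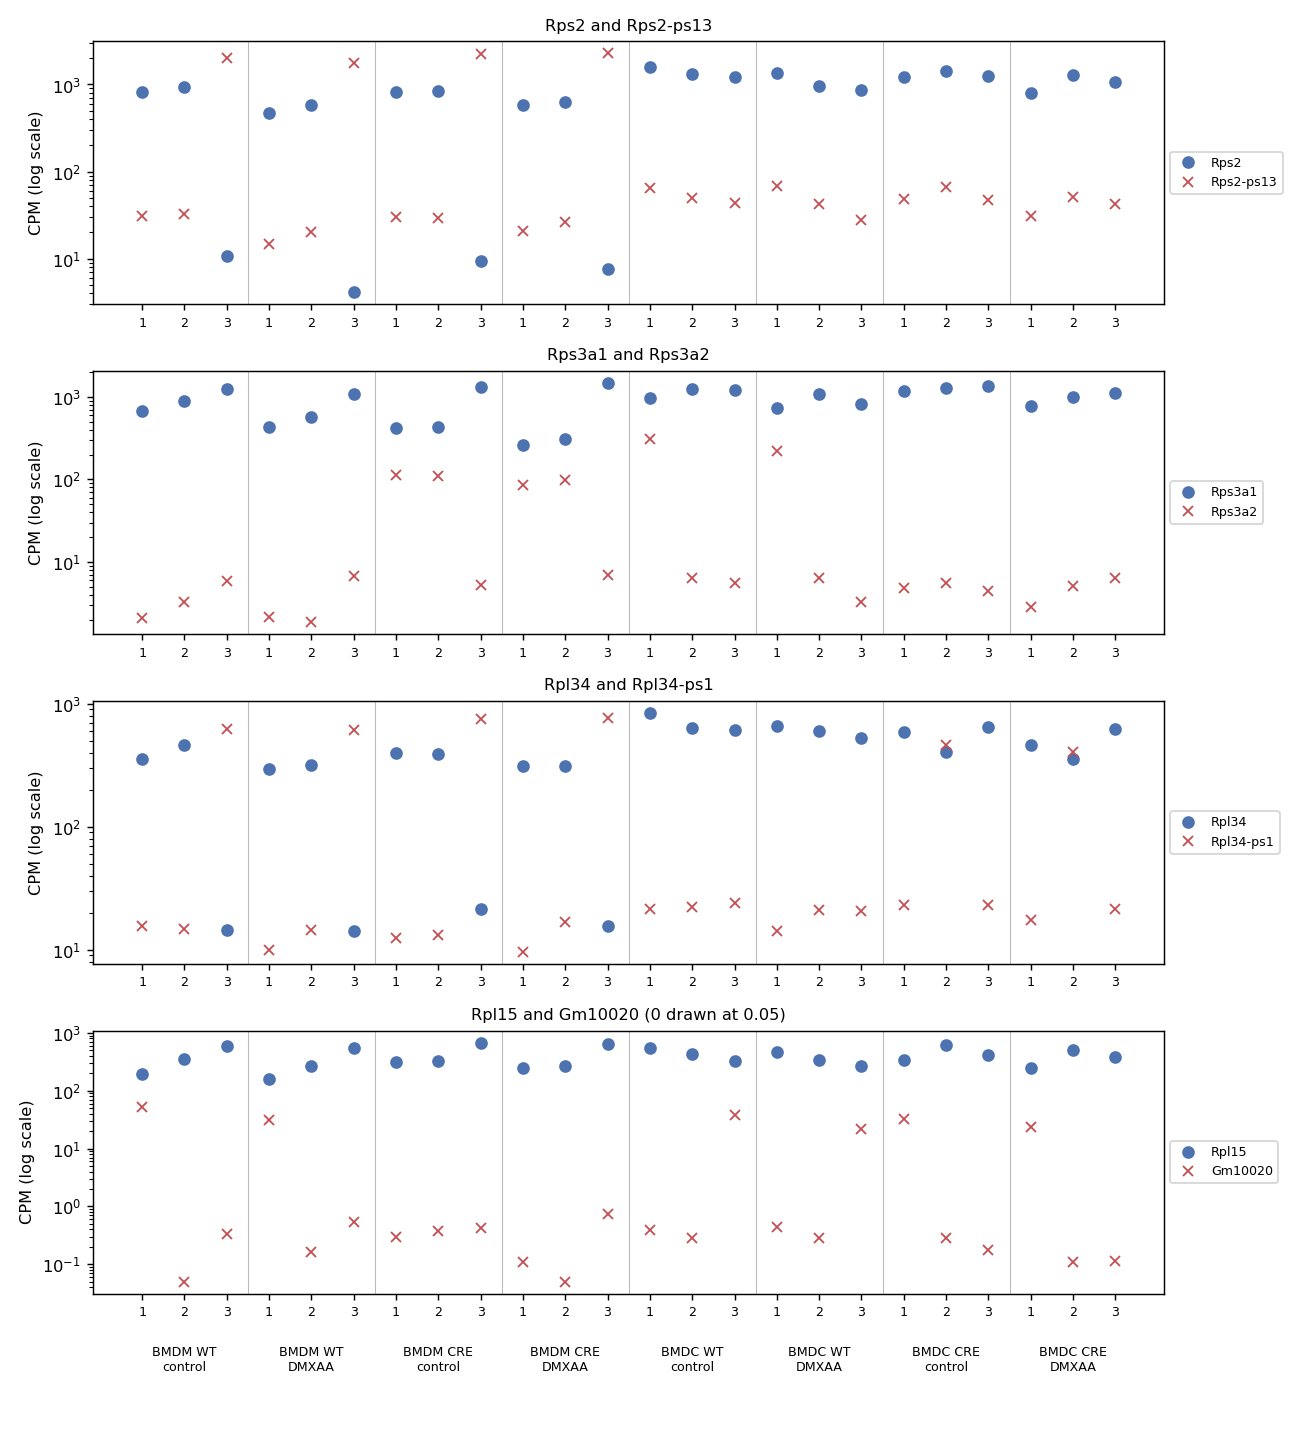
CPM (log axis) of 4 members (circles) and 1 processed pseudogene each (crosses) in the 24 libraries, numbered 1 to 3 within each group; values of 0 for Gm10020 are drawn at 0.05. The crosses rise to the level of the member or above it in BMDM number 3 for Rps2 and Rpl34, and in CRE BMDM 1 and 2 and WT BMDC 1 they rise toward Rps3a1, in control and DMXAA alike.

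In BMDM number 3 the median difference of the canonical members from BMDMs 1 and 2 was 0.24 on the log2(FPKM + 1) scale. Of the 77, 33 were higher and 10 lower in all 4 groups. Of these, 6 were lower by over 1 in all 4: Rpl29, Rps2, Rpl34, Rps18, Rpl35a and Rpl21. Rpl29 was at 0.548 to 1.55 FPKM against 106 to 283 FPKM, and its copy Gm13841, at 84.3 to 96.3 CPM, left a sum of 86.5 to 98.2 CPM, below the 119.8 to 408 CPM of the other BMDMs. Rps18 was at 8.21 to 14.5 FPKM against 163 to 214 FPKM, with its protein-coding copy row Gm11361 at 281 to 366 CPM against 10.6 to 29.7 CPM. Rplp0, by contrast, was higher by 0.81 to 1.31.

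Short members lay lower in CRE BMDMs. The 9 canonical members with at most 300 coding bases had a median log2 fold change of −0.63 there, beside −0.24 for the other 68, and −0.14 beside −0.13 in WT BMDMs. For the interaction the medians were −0.67 and −0.12, and for CRE against WT in control BMDMs they were 0.26 and 2.09e-05. Rps28, Rps29, Rps21 and Rpl38, called lower in CRE BMDMs, are among the 9, with 207, 168, 249 and 210 coding bases. Across the 77 genes, log2 coding length and fold change had a correlation of 0.35 in CRE BMDMs and −0.15 in WT BMDMs. These are descriptions over genes that share libraries and sequence, and the part of coding length in the calls was not tested. Of the counts of the canonical members, the 9 took 7.30% without and 5.75% with DMXAA in CRE number 1, 8.13% and 6.05% in CRE number 2, 7.04% and 6.60% in WT number 1, and 6.50% and 6.96% in WT number 2.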

How the data were processed

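The rule for the members uses names and types, and both it and the lists were chosen with earlier results of these data known. Polyadenylated RNA had been extracted with TRIzol and made into libraries with a NEBNext Ultra kit, for which no strand marking is stated. The submitters' processing notes name CASAVA 1.8, fastp, HISAT2 2.0.5, featureCounts 1.5.0-p3 and DESeq2 1.20.0, with GRCm38 and mm10. The deposited tables hold gene counts, not normalized, and FPKM that the authors calculated from them. Columns of the authors' own comparisons (fold changes, p-values and group means) were not used. How reads that match several genes were treated is not given in the sources used here.

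Counts were tested with edgeR 4.0.16 (quasi-likelihood, robust, TMM factors, two-sided, Benjamini-Hochberg over all genes, threshold 0.05) in R 4.3.3. A gene was tested at an FPKM of at least 1 in 2 of 8 BMDM libraries, 3 of 12 BMDC libraries, or 2 of 20 for the cell types. DESeq2 1.42.0 and limma 3.58.1 were alternatives. Scripts were tested on simulated data. BMDM number 3 was left out of the tests, since its markers went against its label. Samples were grouped by their labels. Library numbers paired the BMDC libraries: deviations of the control and DMXAA library of a number correlated at 0.395 to 0.677, from the data and not the labels.

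Genes named were a fixed list, the 5 largest rises and falls among called members per comparison at a mean FPKM of at least 5, and, where none was called, the 3 smallest p. Other members named for their level, sharing, copies or BMDM number 3 were chosen after their values were seen. Rps4l of the fixed list was not among the members. Some genes are not reported here by name and remain in the counts.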

Additional observations from a re-analysis of the deposited data

Results flagged for a closer look

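Rps28 differed between the labels in its DMXAA response in BMDMs. The interaction was −1.11 on the log2 scale and passed the test of that difference, with the limits given in the report. Groups of 2 or 3 libraries are too small for a test of a single outlying library.

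Processed pseudogenes outside the members carried counts in a few libraries. Rps2-ps13 reached 2281 CPM in BMDM number 3. Outside BMDM number 3, Rpl34-ps1 reached 459 CPM in CRE BMDC number 2, Rps3a2 308 CPM in WT BMDC number 1 and Gm10020 51.8 CPM in WT BMDM number 1. These values are given without an explanation.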

How the results depend on the processing

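Counts of called members are given here in the order WT BMDMs, CRE BMDMs, labels under DMXAA and interaction in BMDMs, WT BMDCs, CRE BMDCs, control cell types, which were 2, 7, 5, 1, 2, 1 and 18. Library totals gave 65, 19, 3, 0, 5, 3 and 36. DESeq2 gave 15 in CRE BMDMs, 1 between labels in control BMDMs, 10 under DMXAA, 6 for the interaction and 39 between cell types. In the same order it called 1908, 126, 2899 and 1195 of all 11569 genes, and 4404 of 13368 between cell types. A floor of 5 FPKM gave 4 in WT BMDMs and 34 between cell types. No filter gave 1 between labels in control BMDMs, 3 for the interaction and 0 in both BMDC comparisons, and limma gave 3 for the interaction. With the replicate block the counts were 11 in WT BMDMs (1 higher and 10 lower), 23 in CRE BMDMs and 6 for the interaction. Beside these, it called 6123, 2983 and 1767 of all 11569 genes in the same order. The block gave 3 in WT BMDCs (1 higher and 2 lower), 3 in CRE BMDCs and 1 for cell type by DMXAA. Of all genes it called 5902 and 5175 of 12126, and 1438 of 13368, in the same order. Deviations of the control and DMXAA BMDM library of a number correlated at 0.656 in WT, within the range of the BMDCs, and at 0.0310 in CRE. With 2 libraries a group, it is not known whether the BMDM numbers mark pairs. With all 12 BMDM libraries the counts were 0 in WT BMDMs, CRE BMDMs, labels under DMXAA and the interaction, and 3 between cell types (4 with the block). Summing members with copies, chosen after seeing the data, gave 0 for the interaction, and members with at most 50% shared words, also chosen then, gave 1, 1, 2, 0, 1 and 3 without CRE BMDCs, which kept 1. Leaving out 1 library gave 0 to 11, 1 to 3, 0 to 3, 0 to 2, 0 to 2, 0 to 2 and 0 to 21, 0 to 1 between labels in control BMDMs (1 without WT control number 1), and 0 for the other comparisons. By FPKM the members' shares were 7.22%, 4.76%, 6.75% and 5.22% in BMDMs (WT control, WT DMXAA, CRE control, CRE DMXAA) and 10.3%, 8.72%, 9.997% and 8.18% in BMDCs. With all 12 BMDM libraries, added after seeing the data, shares were 3.48% in WT DMXAA, 4.71% in CRE control and 4.08% in CRE DMXAA. Leaving out CRE BMDC number 2, also chosen after seeing the data, kept 1 call in CRE BMDCs and 0 between labels in BMDCs. The causes were not tested. With 2 or 3 libraries a group, the number of libraries limits these counts.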
